A study of Mus musculus with 6 samples.

Results

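The genes described here are those of the mouse major histocompatibility complex (MHC) and of the machinery that supplies it with peptides, measured in liver. They were chosen by name: every gene on the array whose name starts with H2-, the prefix of the mouse MHC, together with B2m, Tap1, Tap2, Tapbp, Psmb8, Psmb9, Psmb10, Cd74, Ciita and Nlrc5. This gave 49 of the 27376 gene names on the array. Each gene was read from its array feature with the highest mean signal, as log2 of the quantile-normalized signal that the authors deposited. The study compared 6 livers of male BALB/c mice on single-colour Agilent arrays. The 3 control mice drank normal sterile water. The 3 MC-LR mice drank water with microcystin-LR at 100 µg/L, a toxin of cyanobacteria and an inhibitor of serine/threonine phosphatases. All were 6 weeks old when assigned, were kept on that water for 12 months, and gave 1 liver each.

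MHC class I molecules sit on almost all nucleated cells and show peptides cut by the proteasome in the cytosol, while class II molecules sit mainly on dendritic cells, macrophages and B cells and show peptides from endocytosed protein. Class I needs the light chain B2m, the peptide pump Tap1 and Tap2, and, under interferon gamma, the immunoproteasome subunits Psmb8, Psmb9 and Psmb10. Class II needs the invariant chain Cd74 and is switched on by the transactivator Ciita, whose counterpart for class I genes is Nlrc5. In liver, class I is found on hepatocytes and class II chiefly on Kupffer, dendritic and endothelial cells.

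Slide 1 carried controls 1 and 2. Slide 2 carried control 3 beside all of the MC-LR group and was the one slide with both groups. The share of spots well above background was 68.3%, 64.9% and 73.7% in controls 1 to 3. It was 71.1%, 73.4% and 72.5% in MC-LR 1 to 3. All pairs of arrays correlated at r of 0.982 to 0.993 across features, and the number of arrays limits the precision. The hepatocyte list of 9 measured markers was well above background on every array, with Alb, the albumin gene, at 18.01 to 18.22. Of the 49 genes, 36 were well above background on all 6 arrays and were tested. The other 13 were not well above background on all 3 arrays of either group, and their values ran from 0.90 to 4.52. They are H2-Eb2 and H2-Ob of class II and 11 class I genes of the M, Q and T regions (H2-M1, H2-M9, H2-M11, H2-M10.1, H2-M10.3, H2-M10.4, H2-M10.5, H2-M10.6, H2-Q1, H2-T3 and H2-T18). On 10 of the 13, no array was well above background. By the coordinates in the files, 43 of the 49 lie on chromosome 17, where the mouse MHC is, and 1 has none.

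No gene of the set passed the test between MC-LR and control livers. At an adjusted p under 0.05 (limma, Benjamini-Hochberg over all 18914 genes tested) 0 of the 36 were higher and 0 lower, where 0.0159% of all genes were higher and 0% lower. At an unadjusted p under 0.05 by the same limma fit the count was also 0 in either direction, against 7.46% of all genes higher and 5.4% lower. In none of the 36 did the 3 arrays of one group lie apart from the 3 of the other, a separation seen with MC-LR above in 11.2% of all genes and below in 9.2%. The adjusted p-values ran from 0.535 to 0.985. The log2 difference, MC-LR minus control, was above 0 for 26 genes and below 0 for 10, with a median of 0.05 beside -0.01 over all genes, and with arrays scaled to their median in place of quantiles 33 were above 0. A p that misses the threshold does not show that the groups were alike. Without slide in the fit, the 95% interval of the difference stayed within 2-fold either way for 26 of the 36 genes. These were 18 of 18 class I genes with B2m and Nlrc5 and 4 of 6 peptide supply genes. They also included 2 of 10 class II genes and both genes named only for their position.

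**Figure D1:**
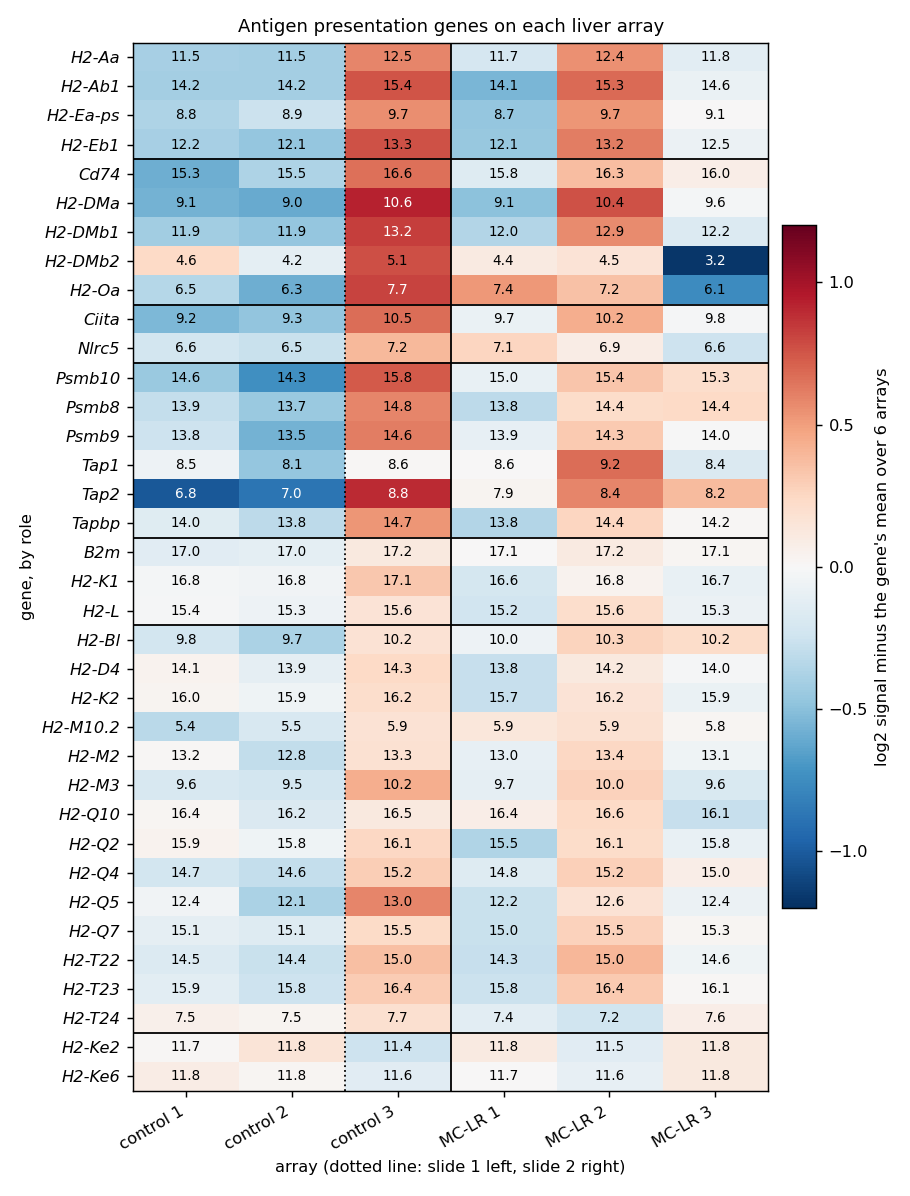
Log2 signal (numbers) of the 36 tested genes on each of the 6 arrays, coloured by its deviation from the gene's own mean over the arrays. In 28 of the 36 rows control 3 and MC-LR 2 are the 2 highest arrays, and in H2-Ke2 and H2-Ke6 at the foot control 3 is the lowest.

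The class II chains differed far more among arrays of one group than between the groups. In controls the gap lay between control 3, on slide 2, and controls 1 and 2, on slide 1. Mouse and slide cannot be told apart there, while the MC-LR arrays shared 1 slide. H2-Ab1, the beta chain of the I-A molecule (mm9 chr17:34406059-34406118), stood at 14.23, 14.23 and 15.39 in controls 1 to 3 and at 14.09, 15.32 and 14.56 in MC-LR 1 to 3. Control 3 and MC-LR 2 were high, the other arrays lay below them, and the groups overlapped fully. Its mean was 14.62 ± 0.67 in controls and 14.66 ± 0.62 with MC-LR (SD, n = 3 each), a difference of 0.04 with a 95% interval of -1.03 to 1.11 (adjusted p = 0.981, limma). H2-Aa, the alpha chain of I-A (mm9 chr17:34420627-34420686), read 11.48, 11.47 and 12.47 in controls and 11.68, 12.43 and 11.75 with MC-LR, a difference of 0.15 (-0.69 to 0.98; adjusted p = 0.889, limma). H2-Eb1, the beta chain of I-E (mm9 chr17:34452050-34452511), read 12.17, 12.11 and 13.34 in controls and 12.12, 13.19 and 12.50 with MC-LR, a difference of 0.06 (-0.97 to 1.09; adjusted p = 0.966, limma). All 3 genes had the same 2 arrays on top.

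H2-Ea-ps is the array's name for the I-E alpha chain gene, which is broken in C57BL/6, the strain of the reference genome, and intact in the H-2d haplotype that BALB/c carries. Its feature lies at mm9 chr17:34481469-34481528 and reads
H2-Ea-ps: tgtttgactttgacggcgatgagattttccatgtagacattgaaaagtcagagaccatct
Every array had it above background, at 8.76, 8.87 and 9.69 in controls and 8.66, 9.66 and 9.13 with MC-LR. The order of the arrays was that of H2-Ab1, with control 3 highest and MC-LR 1 lowest, and the difference was 0.04 (-0.80 to 0.88; adjusted p = 0.974, limma).

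Genes that load class II molecules spread in a similar way. Cd74, the invariant chain that fills the groove until loading (mm9 start 60972075, end 60972132, chromosome 18), read 15.32, 15.53 and 16.56 in controls and 15.75, 16.27 and 15.98 with MC-LR. Control 3 was 1.13 above the mean of controls 1 and 2, and the difference between groups was 0.20 (-0.64 to 1.04; adjusted p = 0.837, limma). H2-DMa, a chain of the H2-DM exchange factor that removes the invariant chain fragment, had the widest gap of the class II genes, at 9.06 and 9.02 in controls 1 and 2 and 10.55 in control 3. With MC-LR it stood at 9.13, 10.39 and 9.60, and the interval of its difference reached from -1.09 to 1.42 around 0.16. H2-DMb1, its partner, read 11.91, 11.86 and 13.15 in controls and 11.97, 12.89 and 12.16 with MC-LR.

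A pair of dimmer loading genes departed from that order. H2-Oa, a chain of the H2-O molecule that restrains H2-DM, read 6.54, 6.30 and 7.70 in controls and 7.41, 7.24 and 6.13 with MC-LR, so that MC-LR 1 was second and MC-LR 3 lowest. H2-DMb2, a second H2-DM beta gene, read 4.57, 4.21 and 5.10 in controls and 4.44, 4.49 and 3.16 with MC-LR, with MC-LR 3 far below the rest. Its difference of -0.60 (-1.62 to 0.43; adjusted p = 0.583, limma) was the most negative of the 36. Ciita, the class II transactivator (mm9 chr16:10526303-10526362), stood at 9.25, 9.31 and 10.46 in controls and 9.71, 10.22 and 9.77 with MC-LR. It had the same 2 arrays on top as the class II chains, and its difference was 0.23 (-0.64 to 1.10; adjusted p = 0.818, limma).

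Over the 10 class II genes with Ciita, the median within-group SD was 0.68 in controls and 0.52 with MC-LR, beside 0.19 and 0.16 over all genes. All 10 had control 3 as their highest array, and in 8 of the 10 control 3 and MC-LR 2 were the 2 highest. Over the 36 genes these counts were 25 and 28, where 21.1% and 11.9% of all genes had those arrays on top. Control 3 and MC-LR 2 were the 2 highest in 15 of 18 class I genes with B2m and Nlrc5. They were so in 5 of 6 peptide supply genes. The order of the arrays was looked at after the values were seen, and no test is attached to it. Control 3 and MC-LR 2 also had the largest shares of spots well above background. The part of that share in the order was not tested. For the class II genes with Ciita, the median deviation from the gene's mean over the 6 arrays was -0.41, -0.44 and 0.76 for controls 1 to 3. For MC-LR 1 to 3 it was -0.28, 0.54 and -0.07. In whole liver RNA, fewer cells of a type and less RNA per cell cannot be told apart.

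**Figure D2:**
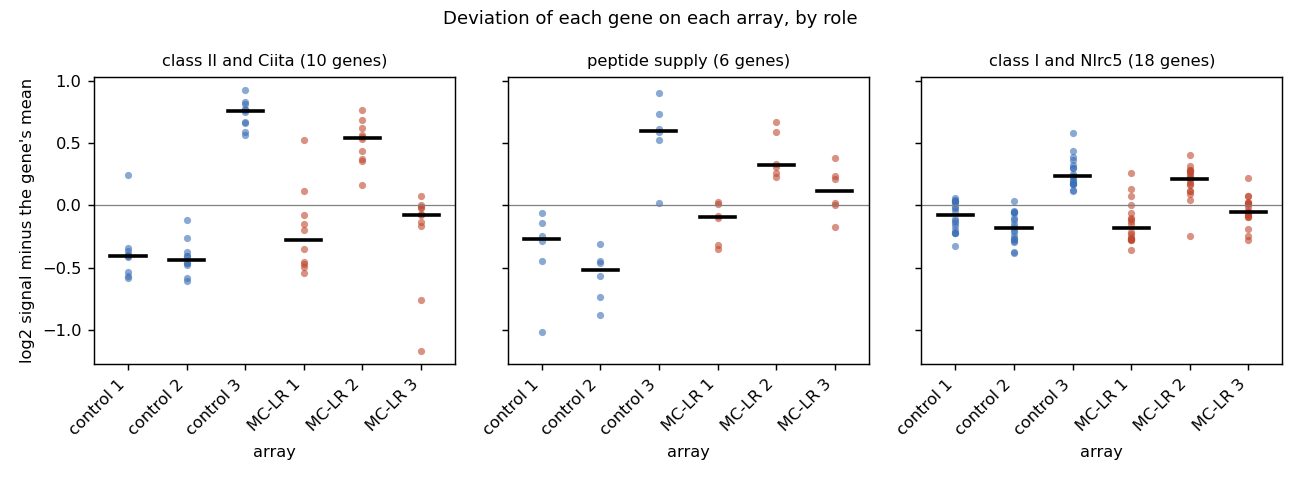
Each point is 1 gene on 1 array, as log2 signal minus the gene's mean over the 6 arrays, for 10 class II genes with Ciita, 6 peptide supply genes and 18 class I genes with B2m and Nlrc5; bars are medians. The class II medians reach 0.76 on control 3 and 0.54 on MC-LR 2, and the class I medians 0.23 and 0.21.

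The array order was not particular to class II. Promoters of class II genes are shown as a description. RefSeq starts (GRCm38.p6) were found for 35 of the 49 genes, as 250 bases before and 50 after the start site. The Y box of class II promoters, bound by the factor NF-Y, has the core GATTGG, and the X box upstream, bound by the RFX complex, often holds AGCAAC. In the stretches below, from 110 to 26 bases before the start and 5′ to 3′ on the strand of the gene, capitals mark these cores, the Y box core on either strand, and the cyclic AMP response element TGACGTCA. The stretches are chr17:34287849-34287933 (minus strand) and, on the plus strand, chr17:34305757-34305841, chr17:34092269-34092353, chr17:34238795-34238879 and chr17:34153081-34153165.
H2-Aa: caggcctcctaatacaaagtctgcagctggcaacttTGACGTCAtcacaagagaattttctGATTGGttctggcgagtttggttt
H2-Eb1: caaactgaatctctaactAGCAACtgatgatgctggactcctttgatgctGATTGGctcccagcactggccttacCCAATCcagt
H2-Oa: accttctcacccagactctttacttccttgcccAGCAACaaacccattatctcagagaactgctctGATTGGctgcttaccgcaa
H2-Ob: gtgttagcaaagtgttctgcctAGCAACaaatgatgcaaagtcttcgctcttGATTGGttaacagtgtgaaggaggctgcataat
H2-DMb1: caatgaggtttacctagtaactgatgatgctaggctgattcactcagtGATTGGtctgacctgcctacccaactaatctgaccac
Searched on both strands of the 300 bases, GATTGG was found in 8 of 8 class II genes with an entry and in 16.1% of all 32851 promoters. AGCAAC was found in 4 of the 8 (H2-Eb1, H2-Eb2, H2-Oa and H2-Ob), against 14.8% of all, and TGACGTCA in H2-Aa alone among the 8, against 1.79%. H2-Ob holds both cores and was not above background on these arrays, while H2-DMb1 holds GATTGG and was measured on all of them. A match is a description of the letters, and no binding was measured.

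The genes that make and move peptides for class I had wide intervals too. Tap2, a subunit of the peptide pump (mm9 chr17:34351722-34352309), had the largest difference of the set, with 6.84, 6.98 and 8.76 in controls and 7.89, 8.45 and 8.24 with MC-LR. All 3 MC-LR arrays lay above controls 1 and 2 and below control 3. The difference of 0.66, or 1.58-fold, had an interval of 0.650-fold to 3.86-fold (adjusted p = 0.625, limma). Tap1, its partner (mm9 chr17:34330854-34330913), read 8.48, 8.08 and 8.56 in controls and 8.55, 9.21 and 8.37 with MC-LR, a difference of 0.34 (-0.28 to 0.95; adjusted p = 0.609, limma). Here MC-LR 2 was above the other 5 arrays. Tapbp, the tapasin that bridges the pump and class I, read 13.99, 13.82 and 14.66 in controls and 13.78, 14.39 and 14.15 with MC-LR.

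Of the immunoproteasome subunits, which replace the constitutive catalytic ones under interferon gamma, Psmb8 (mm9 chr17:34337828-34338152) read 13.88, 13.72 and 14.75 in controls and 13.85, 14.39 and 14.40 with MC-LR. Its difference was 0.10 (-0.66 to 0.86; adjusted p = 0.917, limma). Psmb9 read 13.78, 13.46 and 14.64 in controls and 13.93, 14.34 and 14.03 with MC-LR. Psmb10 read 14.61, 14.32 and 15.79 in controls and 14.97, 15.39 and 15.27 with MC-LR, a difference of 0.30 (-0.65 to 1.26; adjusted p = 0.773, limma). In all 3 subunits control 3 was the highest array and control 2 the lowest. The constitutive partners Psmb5, Psmb6 and Psmb7 belong to a list of 7 proteasome genes. Its median range was 0.18 within controls and 0.12 within MC-LR, beside 1.11 and 0.55 over the 6 peptide supply genes. In 2 of the 7, the activator genes Psme1 and Psme2, control 3 and MC-LR 2 were the 2 highest arrays. Both are named after their values were seen. None of the 7 passed the unadjusted threshold by limma, and the 3 with the smallest p were Psmb7, Psmb6 and Psmb5, with differences of 0.17, -0.12 and -0.06.

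Tap1 and Psmb9 are divergent neighbours read from one short stretch, whose 225 bases between the RefSeq starts lie at chr17:34187331-34187555 (GRCm38.p6, plus strand, the strand of Tap1). Capitals mark the reverse complement of GATTGG, which reads GATTGG on the strand of Psmb9 and begins 9 bases before its start.
Tap1 and Psmb9: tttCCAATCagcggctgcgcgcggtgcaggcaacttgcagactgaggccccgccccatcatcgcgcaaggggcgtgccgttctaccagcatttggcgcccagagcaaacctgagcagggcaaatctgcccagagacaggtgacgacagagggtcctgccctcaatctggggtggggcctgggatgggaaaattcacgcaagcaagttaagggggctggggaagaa
The pair shared the lowest array, control 2, but not the highest, which was control 3 for Psmb9 and MC-LR 2 for Tap1.

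Class I genes were steadier from array to array. B2m, the light chain that every class I molecule needs (mm9 chr2:121978401-121978460), read 16.99, 17.01 and 17.25 in controls and 17.13, 17.24 and 17.15 with MC-LR. Its difference was 0.09, or 1.07-fold (0.885-fold to 1.28-fold; adjusted p = 0.756, limma). H2-K1, the classical K heavy chain (mm9 chr17:34133055-34133114), read 16.77, 16.75 and 17.12 in controls and 16.58, 16.84 and 16.70 with MC-LR, a difference of -0.17 (-0.52 to 0.17; adjusted p = 0.636, limma). Control 3 was above every other array. Nlrc5, the class I transactivator (mm9 chr8:97044928-97044987), read 6.60, 6.55 and 7.21 in controls and 7.08, 6.91 and 6.57 with MC-LR, a difference of 0.06 (-0.49 to 0.62; adjusted p = 0.926, limma).

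H2-D1, the classical D heavy chain, has no feature under that name. Its transcript is listed for both features named H2-L, after the L molecule of the H-2d haplotype. The brighter one, used here, also lists H2-Q2, so its signal cannot be given to one gene. The other lists H2-D1 alone and read 15.10, 15.04 and 15.59 in controls and 15.03, 15.61 and 15.40 with MC-LR, a difference of 0.10 (adjusted p = 0.866, limma, over all features), opposite in sign to the feature used. The H2-L and H2-Q2 features, at mm9 chr17:35403132-35403191 and mm9 chr17:35482113-35482172, are near-identical: they overlap in 50 bases and match in 47, or 94.0%. They follow the array's design, and no BALB/c allele was read here. Capitals mark the 3 bases that differ within the overlap.
H2-L: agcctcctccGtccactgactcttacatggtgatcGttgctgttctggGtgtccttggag
H2-Q2: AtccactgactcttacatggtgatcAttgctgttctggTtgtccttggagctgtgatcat
H2-L read 15.37, 15.32 and 15.55 in controls and 15.15, 15.59 and 15.31 with MC-LR, a difference of -0.06 (-0.42 to 0.29; adjusted p = 0.881, limma). H2-Q2 read 15.91, 15.82 and 16.12 in controls and 15.51, 16.09 and 15.78 with MC-LR, with MC-LR 1 lowest on both. Among the 351 pairs of class I heavy chain features used here, 2 shared a run of 20 or more bases, which were H2-L with H2-Q2 (24 bases) and H2-Q7 with H2-T23 (28 bases). In the 55 class II pairs the longest shared run was 10 bases.

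The promoters of H2-K1, H2-D1 and H2-Q7, the Qa-2 gene, hold the letters of an NF-kappaB type site, and are shown for that. The stretches run from 185 to 86 bases before the start, at chr17:34000433-34000532 (minus strand), chr17:35262909-35263008 and chr17:35438970-35439069 (plus strand), and capitals mark GGGGATTCC.
H2-K1: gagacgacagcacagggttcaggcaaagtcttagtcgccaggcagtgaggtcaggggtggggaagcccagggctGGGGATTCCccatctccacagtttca
H2-D1: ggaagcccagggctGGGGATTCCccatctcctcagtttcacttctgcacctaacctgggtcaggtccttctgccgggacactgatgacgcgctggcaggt
H2-Q7: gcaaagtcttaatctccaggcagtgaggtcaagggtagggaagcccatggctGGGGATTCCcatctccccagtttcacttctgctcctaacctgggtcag
It was found, on either strand, in 3 of 21 class I genes with an entry, counted with B2m and H2-D1, against 0.25% of all promoters and 0 of 8 class II genes. The B2m stretch from 145 to 31 bases before the start, chr2:122147542-122147656 (plus strand), is shown with GATTGG in capitals.
B2m: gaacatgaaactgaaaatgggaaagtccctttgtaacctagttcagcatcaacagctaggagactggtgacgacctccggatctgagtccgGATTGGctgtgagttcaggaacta
With B2m, 16 of the 21 held GATTGG on either strand.

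The nonclassical class I genes show peptides to other receptors or serve elsewhere. H2-Q10, a secreted class I molecule made by liver, read 16.39, 16.19 and 16.48 in controls and 16.44, 16.60 and 16.09 with MC-LR, a difference of 0.03 (-0.37 to 0.42; adjusted p = 0.959, limma). H2-T23, the Qa-1 molecule seen by natural killer receptors, read 15.92, 15.80 and 16.35 in controls and 15.79, 16.36 and 16.06 with MC-LR. H2-M3, which presents peptides with a formyl group, read 9.56, 9.54 and 10.19 in controls and 9.65, 10.03 and 9.57 with MC-LR. H2-T23 and H2-M3 both had control 3 and MC-LR 2 on top. The smallest p of the set was that of H2-Bl, at 9.81, 9.65 and 10.20 in controls and 9.97, 10.30 and 10.25 with MC-LR (difference 0.29, unadjusted p = 0.156, adjusted p = 0.535, limma). H2-T24 followed at 7.55, 7.53 and 7.69 in controls and 7.37, 7.25 and 7.57 with MC-LR (difference -0.19, adjusted p = 0.539, limma), where MC-LR 3 was above both other MC-LR arrays and above controls 1 and 2. The remaining 8 tested class I genes (H2-D4, H2-K2, H2-M2, H2-M10.2, H2-Q4, H2-Q5, H2-Q7 and H2-T22) had differences between -0.13, for H2-K2, and 0.23, for H2-M10.2. The feature named H2-Q7 lists transcripts of both H2-Q7 and H2-Q9, so its signal cannot be given to one gene.

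H2-Ke2 and H2-Ke6 carry the prefix for their place beside the MHC and do not present antigen: H2-Ke2 is the prefoldin subunit Pfdn6, and H2-Ke6 a steroid dehydrogenase. H2-Ke2 read 11.67, 11.81 and 11.41 in controls and 11.76, 11.52 and 11.77 with MC-LR. H2-Ke6 read 11.82, 11.76 and 11.60 in controls and 11.74, 11.64 and 11.85 with MC-LR. In both, control 3 was the lowest array, the opposite of the class II genes beside them on the chromosome.

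Genes with several features gave a further look at the array order. Of 25 other features of the tested genes that passed the same filter, 18 had a difference of the same sign as the feature used and 7 the opposite, by at most 0.50 from it. All 4 features of H2-Ab1 had control 3 at least 1.13 above the mean of controls 1 and 2. With every feature counted on its own, 3 of 61 were higher at an unadjusted p under 0.05 (limma) and 0 lower, beside 7.89% and 5.03% of all 28507 features. They are named after their values were seen. One B2m feature read 14.84, 14.94 and 15.54 in controls and 15.57, 15.65 and 15.60 with MC-LR (difference 0.50, unadjusted p = 0.0440, adjusted p = 0.376, limma), while the third B2m feature differed by 0.01. A pair of H2-Bl features differed by 0.34 and 0.40 (adjusted p = 0.325 and 0.287, limma). Control 3 was the lowest of the 6 arrays on both, at 6.19 and 6.18. On the brighter H2-Bl feature used, control 3 was above controls 1 and 2, so the array order differed between features of that gene.

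The sign of the differences depended on which controls were compared, and control 3 was the only control on the slide of the MC-LR arrays. With slide as a fixed block, which leaves the comparison of the 3 MC-LR arrays with control 3, the median difference of the 36 genes was -0.39, 33 were below 0, and 23 had changed sign. The class II median moved from 0.07 to -0.74, the peptide supply median from 0.22 to -0.55 and the class I median from 0.02 to -0.27. In that fit 3 genes were lower at an unadjusted p under 0.05 and 0 higher, beside 8.14% and 7.91% of all genes, and none passed the adjusted threshold (limma). They were H2-K1 (-0.41 ± 0.14 SE, adjusted p = 0.273), Psmb10 (-0.58 ± 0.22, adjusted p = 0.296) and H2-Q5 (-0.64 ± 0.23, adjusted p = 0.284). Within slide 2 all 3 MC-LR arrays were below control 3 in 25 of the 36 genes and above it in 2, H2-Ke2 and H2-Ke6, beside 29% and 32.9% of all genes. Within slide 2, with 1 control in the comparison, H2-Q5 differed by -0.64, as with slide as a block.

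Without control 3 the difference lay above 0 for 28 of the 36 genes and below 0 for 8, and 6 had changed sign, beside 13 without control 1, 15 without control 2 and 12 without MC-LR 2. Slide 1 then held the controls and slide 2 the MC-LR group, and these cannot be told apart. The median difference was 0.26, and 7 of 36 genes were higher and 0 lower at an unadjusted p under 0.05 (limma), beside 10.6% and 10.2% of all genes. They were Tap2 (1.28 ± 0.19 SE), Psmb10 (0.75 ± 0.17), Ciita (0.62 ± 0.18), Cd74 (0.58 ± 0.18), Psmb9 (0.48 ± 0.17), H2-Bl (0.44 ± 0.14) and H2-M10.2 (0.38 ± 0.10), with adjusted p from 0.0704 for Tap2 to 0.217 for Psmb9. In 13 genes the MC-LR arrays then lay above both controls and in 0 below, where 20.6% and 22.7% of all genes did. With slide as a block Tap2 was at -0.57, Ciita at -0.56 and Cd74 at -0.56.

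**Figure D3:**
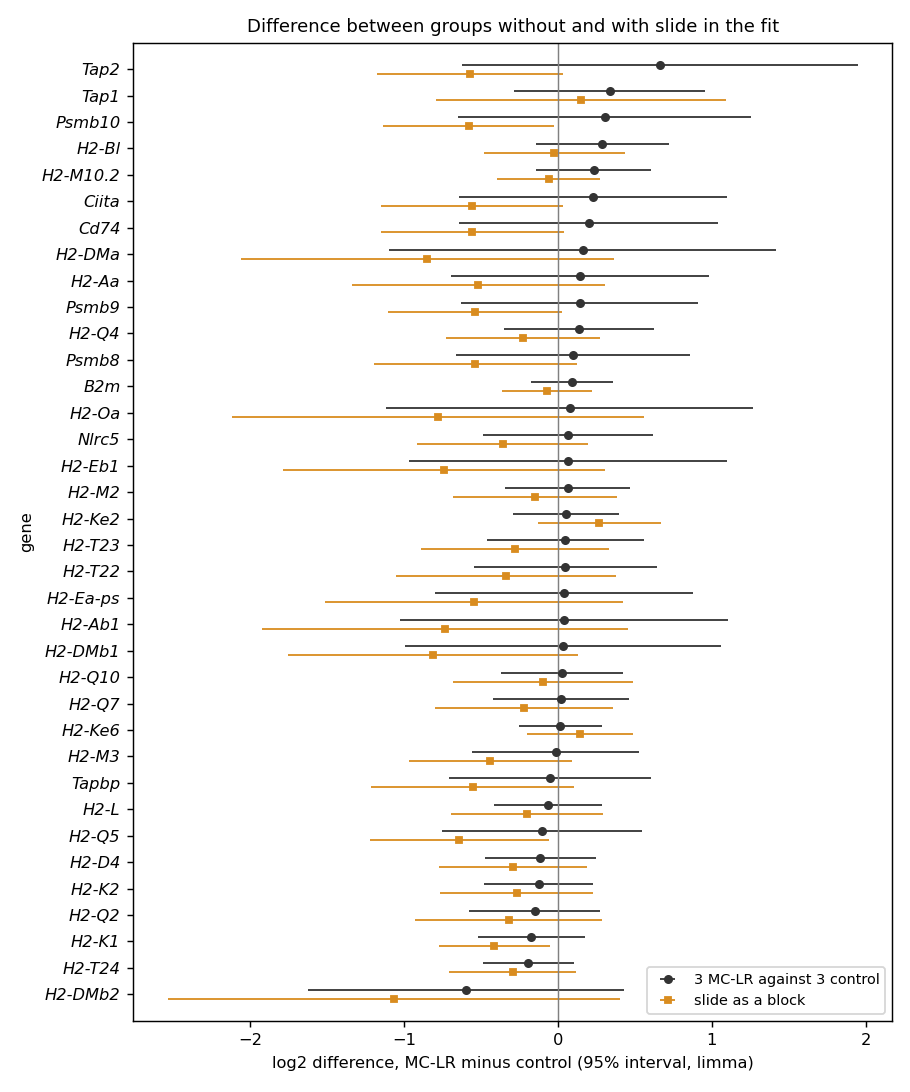
Log2 difference, MC-LR minus control, of the 36 genes with its 95% interval from limma, without slide in the fit (circles) and with slide as a block (squares). With slide in the fit 33 of the 36 squares lie left of 0, and all but H2-K1, H2-Q5 and Psmb10 have an interval that holds 0.

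Interferon gamma, the cytokine made by T and natural killer cells that induces Ciita, the immunoproteasome and class I, was itself measured. Ifng read 6.42, 5.94 and 8.16 in controls and 7.06, 7.05 and 6.42 with MC-LR, with control 3 above every other array, and is named after its values were seen. A list of 19 measured interferon gamma response genes had control 3 as the highest array in 19 of 19 and had control 3 and MC-LR 2 on top in 14, or 73.7%. The list's median deviation was -0.39, -0.75 and 1.07 for controls 1 to 3 and -0.14, 0.34 and -0.35 for MC-LR 1 to 3. None of the 19 passed the unadjusted threshold by limma, and the list's median difference was -0.01. The 3 with the smallest p were Iigp1 (-0.41), Gbp6 (-0.45) and Irgm1 (-0.38), GTPases of intracellular defence. The part of interferon gamma in the spread of the MHC genes was not tested.

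Signalling genes upstream gave other values. Of 11 interferon gamma signalling genes 3 were lower and 0 higher at an unadjusted p under 0.05, beside 5.4% and 7.46% of all genes, and none passed the adjusted threshold (limma). They were both receptor chains, Ifngr2 (-0.45, adjusted p = 0.257) and Ifngr1 (-0.40, adjusted p = 0.321), and the kinase Jak1 (-0.28, adjusted p = 0.343). Ifngr2 stood at 12.60, 12.43 and 12.43 in controls and 11.93, 12.05 and 12.13 with MC-LR, with no overlap. Of 16 MHC transcription factors 3 were lower and 0 higher at the same threshold, beside the same 5.4% and 7.46%: Nfkb1 (-0.54, adjusted p = 0.231), the RFX subunit Rfxank (-0.44, adjusted p = 0.310) and the NF-Y subunit Nfya (-0.48, adjusted p = 0.357). The median differences of these lists were -0.12 and -0.04.

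Helpers of class I and class II made up the other lists, none with a gene past the adjusted threshold. Of 15 peptide loading and trimming genes 1 was lower at an unadjusted p under 0.05 (limma), beside 5.4% of all genes. It was the chaperone Calr (-0.35), ahead of Hspa5 (-0.51) and Lap3 (-0.23), with a list median of -0.06. Of 10 class II processing genes 1 was higher, March8 (0.27), a ubiquitin ligase that removes class II from the surface. It was ahead of the proteases Lgmn (-0.32) and Ctsl (-0.20), with a list median of -0.14. Of all genes, 7.46% were higher at that unadjusted threshold. Neither 10 class I-like genes outside the H2 names (median -0.07, led by Mr1 at 0.33, Raet1e at -1.76 and Raet1a at -0.75) nor 7 costimulation genes (median -0.24, led by Cd86 at -0.40, Cd80 at -0.27 and Cd40 at -0.31) had one past it.

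Markers of cells that carry class II were set beside the class II genes. The 14 Kupffer cell and macrophage markers had control 3 on top in 12, and their median deviation was 0.68 on control 3, 0.00 on MC-LR 2 and -0.52 on MC-LR 1. Their summed signal ran from 131000 to 237000 in controls and from 114000 to 143000 with MC-LR, and none passed the unadjusted threshold (limma); C1qa (-0.47), Timd4 (-0.46) and Emr1 (-0.69) had the smallest p. Of 9 dendritic cell markers control 3 was highest in 5, with a summed signal of 1350 to 2350 in controls and 1350 to 1950 with MC-LR. Its members did not share 1 order: Itgax, the integrin CD11c, read 8.73, 8.75 and 9.98 in controls and 9.14, 9.84 and 8.86 with MC-LR, while Zbtb46 read 7.29, 7.07 and 6.53 in controls, with control 3 its lowest array. Xcr1 had control 3 and MC-LR 2 as its 2 lowest arrays, at 6.62 and 6.45, and these 3 genes are named after their values were seen. Siglech was measured on 4 arrays only, control 3 at 2.99 and MC-LR at 3.31, 2.83 and 3.09, and was not well above background in controls 1 and 2, so no difference is given for it. Clec10a (-0.20) and Batf3 (-0.31) had the next smallest p, and Cd209a was above background nowhere.

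The 9 B cell markers had control 3 highest in 5 and a summed signal of 7040 to 12600 in controls and 6900 to 14600 with MC-LR. Pax5 was above background nowhere, none passed the unadjusted threshold (limma), and Ebf1 (-0.44) and Cd79a (-0.12) were among those with the smallest p. The 10 T cell markers had control 3 highest in 8, and control 3 and MC-LR 2 on top in 7. Their summed signal was 2190 to 4090 in controls and 2050 to 3390 with MC-LR. None of them was past the threshold, led by Cd4 (0.19), Cd3e (0.19) and Cd28 (-0.14). Liver endothelial markers had a median deviation of -0.17 on control 3, and 2 of 11 were lower with MC-LR at an unadjusted p under 0.05 (limma), beside 5.4% of all genes: Pecam1 (-0.54) and Cdh5 (-0.44), ahead of Stab2 (-0.30). The part of these cells in the spread of the class II genes was not tested.

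The last 5 lists held markers of other cells of the liver. Of 7 neutrophil markers 6 were highest on control 3, with a median difference of -0.56 and none past the unadjusted threshold (limma); S100a9 (-0.95), Csf3r (-0.45) and S100a8 (-0.76) had the smallest p. Gzma (0.60) was the 1 of 7 natural killer markers past it, ahead of Prf1 (-0.44) and Klrk1 (-0.24), and Eomes was not well above background. Among 9 stellate cell markers Lrat (0.95) was higher, ahead of Hand2 (0.55). Of 5 cholangiocyte markers Sox9 (-0.73) was lower, ahead of Spp1 (-0.54) and Krt7 (0.31). In 4 of these 5 control 3 and MC-LR 2 were the 2 highest arrays, as in 8 of the 10 class II genes. The cholangiocyte median deviations were 0.74 on control 3 and 0.67 on MC-LR 2. Of 9 hepatocyte markers Fgb (-0.50) was lower, ahead of Apoa2 (0.21) and Alb (0.12). Of all genes, 7.46% were higher and 5.4% lower at that unadjusted threshold. The median deviations of the hepatocyte list stayed between -0.02 and 0.08 on the 6 arrays.

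**Figure D4:**
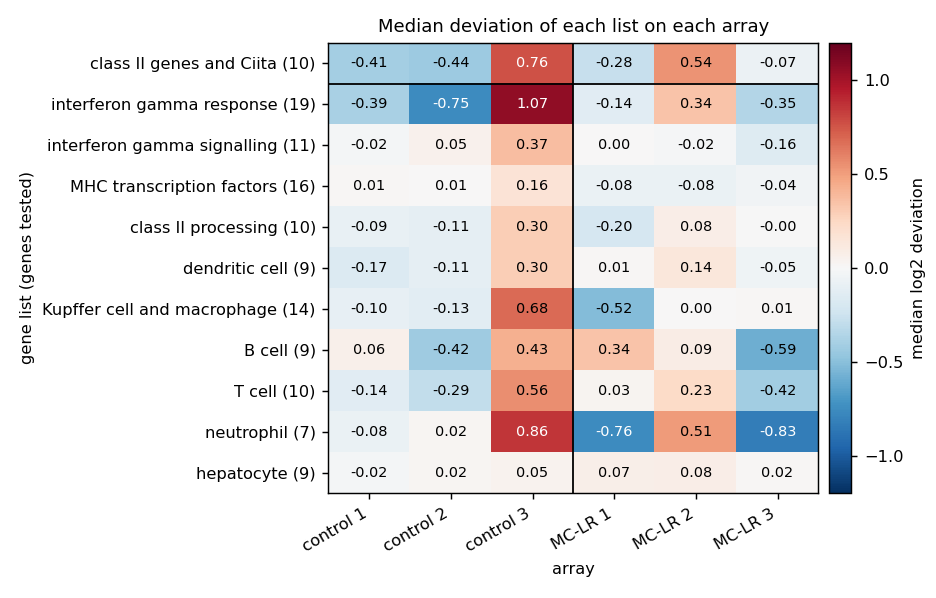
Median log2 deviation from each gene's mean over the 6 arrays, for the class II genes with Ciita and for 10 other lists, with the number of genes tested in parentheses. Control 3 is the highest array for the class II genes at 0.76 and for the interferon gamma response list at 1.07, and the hepatocyte list lies between -0.02 and 0.08. The cholangiocyte list, at 0.74 on control 3 and 0.67 on MC-LR 2, is not drawn.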

How the data were processed

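Liver RNA of 6 mice was hybridised to single-colour Agilent arrays, and groups came from the sample titles. The deposited table holds log2 values that the authors quantile-normalized in GeneSpring, per the labels' design text. The correlation of each column with the scanner signal of the same array was 0.9982 to 0.9999. Per the submitters' processing notes the scanner output is from Agilent Feature Extraction 10.7. Its intensity values were spatially detrended, per the file headers, and were used for the background flags and as alternatives. Coordinates of features are those of the files (mm9).

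The gene set, the other lists and the rule for naming genes were chosen with earlier results of these data known. The rule gives every gene of the set by value or in a count with its range, and of each other list the genes past the adjusted threshold or else the 3 with the smallest p; some values of the marker lists are not reported here. Genes entered the test where 1 group or both had the feature well above background on its 3 arrays. The two-sided test was eBayes after lmFit in limma 3.58.1 (R 4.3.3), with 4 residual degrees of freedom and 2.04 from the prior. P-values were adjusted by Benjamini-Hochberg over 18914 genes, with a threshold of 0.05. Summed signals of marker lists are sums of 2 to the power of the log2 values. On simulated data of these 18914 genes, in 20 runs with 200 changed genes, recovery was 48.1% for a log2 change of 1 and 80.2% for a log2 change of 2. On average 6.21% of the calls were unchanged genes. The changed genes were drawn from all genes, with independent noise at each gene's own SD and no slide difference. The median SD of the class II genes was 0.68 in controls, beside 0.19 over all genes, and recovery among genes of the set was not measured.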

Additional observations from a re-analysis of the deposited data

How the results depend on the processing

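In all 21 alternatives to the fit reported, 0 genes of the set passed the adjusted threshold. The alternatives were other scalings, filters, feature and name choices, slide and replicate blocks, other moderation, and each array left out in turn. At the unadjusted threshold (limma) the count was 1 with median scaling (B2m) and 1 with the mean of a gene's features (H2-Bl). It was 3 with every feature on its own, 3 with slide as a fixed block and 3 with array weights (H2-M10.2, Tap2 and H2-Bl). With an array left out it ran from 0 to 7, with 7 without control 3. Within slide 2, where 1 control remains, no such count is given. Of all genes, median scaling put 9.44% higher and 3.85% lower at that threshold, the mean of features 7.77% and 4.9%, and array weights 15.1% and 14.8%. Genes whose groups lay apart numbered 1 with 75th percentile scaling, with median scaling, with normexp and with the mean of features, 3 with every feature on its own, 27 within slide 2, and 0 to 13 with an array left out, with 13 without control 3, 4 without MC-LR 2 and 1 each without control 2, MC-LR 1 and MC-LR 3. Of all genes, 17.6% lay apart above and 14.8% below without MC-LR 2, and 13.6% to 17.3% above and 11.9% to 15.7% below without control 2, MC-LR 1 or MC-LR 3. With the 75th percentile, median, normexp and feature choices, 11.1% to 14.6% of all genes or features lay apart above and 6.01% to 9.07% below. The median difference of 0.05 became -0.39 with slide as a fixed block and -0.39 within slide 2, and ran from -0.10 without MC-LR 2 to 0.26 without control 3. Psmb10 turned from 0.30 to -0.58 with slide as a fixed block, which compares the MC-LR arrays with control 3 alone. Slide as a random block gave a median of -0.13. The labels number both groups 1 to 3, but same-numbered arrays had deviations that correlated at 0.18, -0.32 and -0.19, so the numbers were not taken to pair mice. The replicate block gave 0 genes past either threshold (limma) and a median of 0.05, and changed no call. The medians by role and the counts of array order were added after the data were seen. The 13 dim genes have only bounds, and nothing can be said of their difference.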
